A study of Mus musculus with 8 samples.

Results

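The miR-379/miR-410 cluster is a run of microRNA hairpins, miR-134 among them, in the imprinted domain of distal mouse chromosome 12. Its members were taken as every capture probe of the array whose mouse name carries 1 of 36 hairpin names, with either arm of the hairpin. The rule found 71 of the 1034 probes with a mouse name, and the rule itself uses names alone. Both arms had a probe for 35 hairpins, and mmu-miR-453 had 1 probe. Amygdala tissue came from adult male C57/Bl6J mice. In the fear conditioned group, 4 mice received 5 pairings of a 6 kHz tone with a 0.6 mA shock and were killed 30 min later. The 4 home cage mice stayed in their cages, so an effect of learning and an effect of tone, shock or handling cannot be told apart in this design. The tissue was punched from both sides with a 1 mm punch, and each array carried the RNA of 1 animal, labelled with the dye Hy3, together with a pool of RNA from the individual animals labelled with Hy5. In punches of bulk tissue, fewer cells of a type and less RNA per cell cannot be told apart.

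MicroRNAs of this kind are cut from hairpins in long noncoding transcripts, and the transcripts of this domain are made from the chromosome inherited from the mother. A hairpin can yield a mature microRNA from each of its arms, named 5p and 3p. The older array names mark the arm then held to be the less abundant with an asterisk. A mature microRNA finds messenger RNAs mainly through its seed, the stretch near its 5′ end, and lowers their translation and stability. The cluster is best known from neurons. In cultured rat neurons the transcription factor Mef2 drives it after activity, and miR-134, which represses Limk1 in dendrites, limits the size of dendritic spines.

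In the RefSeq annotation of GRCm38.p6, the first and last member hairpins bound chr12:109709060-109743795, a span of 34736 bases, with Mir379 at one end and Mir410 at the other. All 36 hairpins had coordinates there, and 9 of them lay within the span of the noncoding gene Mirg. The annotation had a mature sequence for 67 of the 71 probes under current arm names. The mature sequences below are from RefSeq, on the plus strand of chromosome 12. They are those of miR-134, of some members whose values are given later, and of member pairs with similar letters. Each runs 5′ to 3′, and capitals mark the seed, bases 2 to 8. The asterisk names of the array correspond to mmu-miR-134-3p, mmu-miR-379-3p, mmu-miR-411-3p, mmu-miR-376b-5p and mmu-miR-376c-5p in this list.
mmu-miR-134-5p: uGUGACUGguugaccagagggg
mmu-miR-134-3p: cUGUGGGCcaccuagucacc
mmu-miR-329-3p: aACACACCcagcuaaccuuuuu
mmu-miR-495-3p: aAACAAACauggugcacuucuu
mmu-miR-539-5p: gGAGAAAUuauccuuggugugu
mmu-miR-377-3p: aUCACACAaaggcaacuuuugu
mmu-miR-369-3p: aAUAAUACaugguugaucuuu
mmu-miR-410-3p: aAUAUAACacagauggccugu
mmu-miR-300-3p: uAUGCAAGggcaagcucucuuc
mmu-miR-381-3p: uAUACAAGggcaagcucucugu
mmu-miR-376a-3p: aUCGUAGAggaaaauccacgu
mmu-miR-376b-3p: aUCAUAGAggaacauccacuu
mmu-miR-376b-5p: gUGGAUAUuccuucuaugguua
mmu-miR-376c-5p: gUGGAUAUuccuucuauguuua
mmu-miR-379-5p: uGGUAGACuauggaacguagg
mmu-miR-411-5p: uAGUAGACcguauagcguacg
mmu-miR-379-3p: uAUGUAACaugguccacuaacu
mmu-miR-411-3p: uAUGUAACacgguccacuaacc

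The members are close in sequence in places. The 3p arms of mmu-miR-300 and mmu-miR-381 shared 19 of 22 positions and 6 of the 7 bases of the seed. Those of mmu-miR-376a and mmu-miR-376b shared 18 of 21 positions, again with 6 of 7 seed bases. The 5p arms of mmu-miR-376b and mmu-miR-376c shared 21 of 22 positions and the whole seed, and the 3p arms of mmu-miR-379 and mmu-miR-411 shared 20 of 22 positions and the whole seed. A probe for one member of such a pair may also bind the other, which was not tested, so their values are not independent readings of separate microRNAs. Across all members with a sequence, 5 seeds occurred in 2 members each, among them the seed of mmu-miR-379-5p, which mmu-miR-1193-5p also carries.

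Levels were measured in 2 ways. The first is the log2 Hy3 signal after background correction and quantile normalization, which makes the spread of values the same on every array. The second is the log ratio that the authors deposited, taken here as log2 of sample over pool, though no source used here gives its base or direction. One array stood apart. Background was above signal at 508 spots of home cage array 1, and at 0 to 10 spots of each other array. Its negative control threshold before normalization was 7.23 on the log2 scale, against 6.17 to 6.52 elsewhere. On that array some markers of other cell types also lay apart from the home cage mean. They were at -0.80 on the log2 scale over the 2 oligodendrocyte probes, -0.80 for the vessel probe and -1.34 for the choroid plexus probe. Further marker sets there were at -0.36 for red blood cells, -0.16 for astrocytes, 0.0090 for microglia and leukocytes and 0.062 for liver, heart and muscle. The choroid plexus probe was also far from its group mean on fear conditioned array 3, at -1.25. All of these probes were detected on all 8 arrays, and their part in the results was not tested. The 3 probes for neuronal microRNAs, mmu-miR-124, mmu-miR-9 and mmu-miR-128, were detected on all 8 arrays, with median deviations from the group mean of -0.19 to 0.21 on fear conditioned arrays and -0.048 to 0.047 on home cage arrays. Between 565 and 657 mouse probes were detected per array. A probe counts as detected on an array if it exceeds the 95th percentile of the 28 negative control spots there. The 4 arrays a group limit the precision of these values.

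Most of the cluster was measurable in amygdala. Of the 71 members, 40 were detected on all 8 arrays (56.3%), compared with 440 of the 963 other mouse probes (45.7%). Another 18 were detected on 4 to 7 arrays, 5 on 1 to 3 and 8 on none. The 8 with no detection were mmu-miR-758, mmu-miR-494, mmu-miR-1193-5p, mmu-miR-666-5p, mmu-miR-666-3p, mmu-miR-654-5p, mmu-miR-539-3p and mmu-miR-134*. Differences of probes near or below the negative controls were not read as changes.

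The arms were detected unevenly. Both arms were above the controls on all 8 arrays for 13 of 35 hairpins: mmu-miR-411, mmu-miR-329, mmu-miR-495, mmu-miR-376a, mmu-miR-376b, mmu-miR-300, mmu-miR-381, mmu-miR-382, mmu-miR-485, mmu-miR-154, mmu-miR-377, mmu-miR-541 and mmu-miR-369. A single arm was so detected for another 13, and it was the 3p arm in 10 of them. Neither arm was for 9 hairpins, mmu-miR-134, mmu-miR-323, mmu-miR-412, mmu-miR-494, mmu-miR-654, mmu-miR-666, mmu-miR-679, mmu-miR-758 and mmu-miR-1193. By arm, 23 of 35 3p probes and 16 of 35 5p probes passed on all 8 arrays. By name, 13 of 24 asterisk probes passed and 21 of 25 probes with neither an asterisk nor an arm in their name.

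Detection varied along the cluster. Among the first 12 hairpins, from mmu-miR-379 to mmu-miR-543, 8 of 24 probes were detected on all 8 arrays. Among the next 12, from mmu-miR-495 to mmu-miR-382, the count was 17 of 24, and among the last 12, from mmu-miR-134 to mmu-miR-410, it was 15 of 23. Brightness depends on the probe as well as on the microRNA, so these counts say where signal was measurable and give no order of abundance. Each of them also requires detection on home cage array 1, whose negative control threshold before normalization was raised, at 7.23. Probes detected on 7 of 8 arrays, mmu-miR-379* and mmu-miR-758* among them, are not counted.

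**Figure D1:**
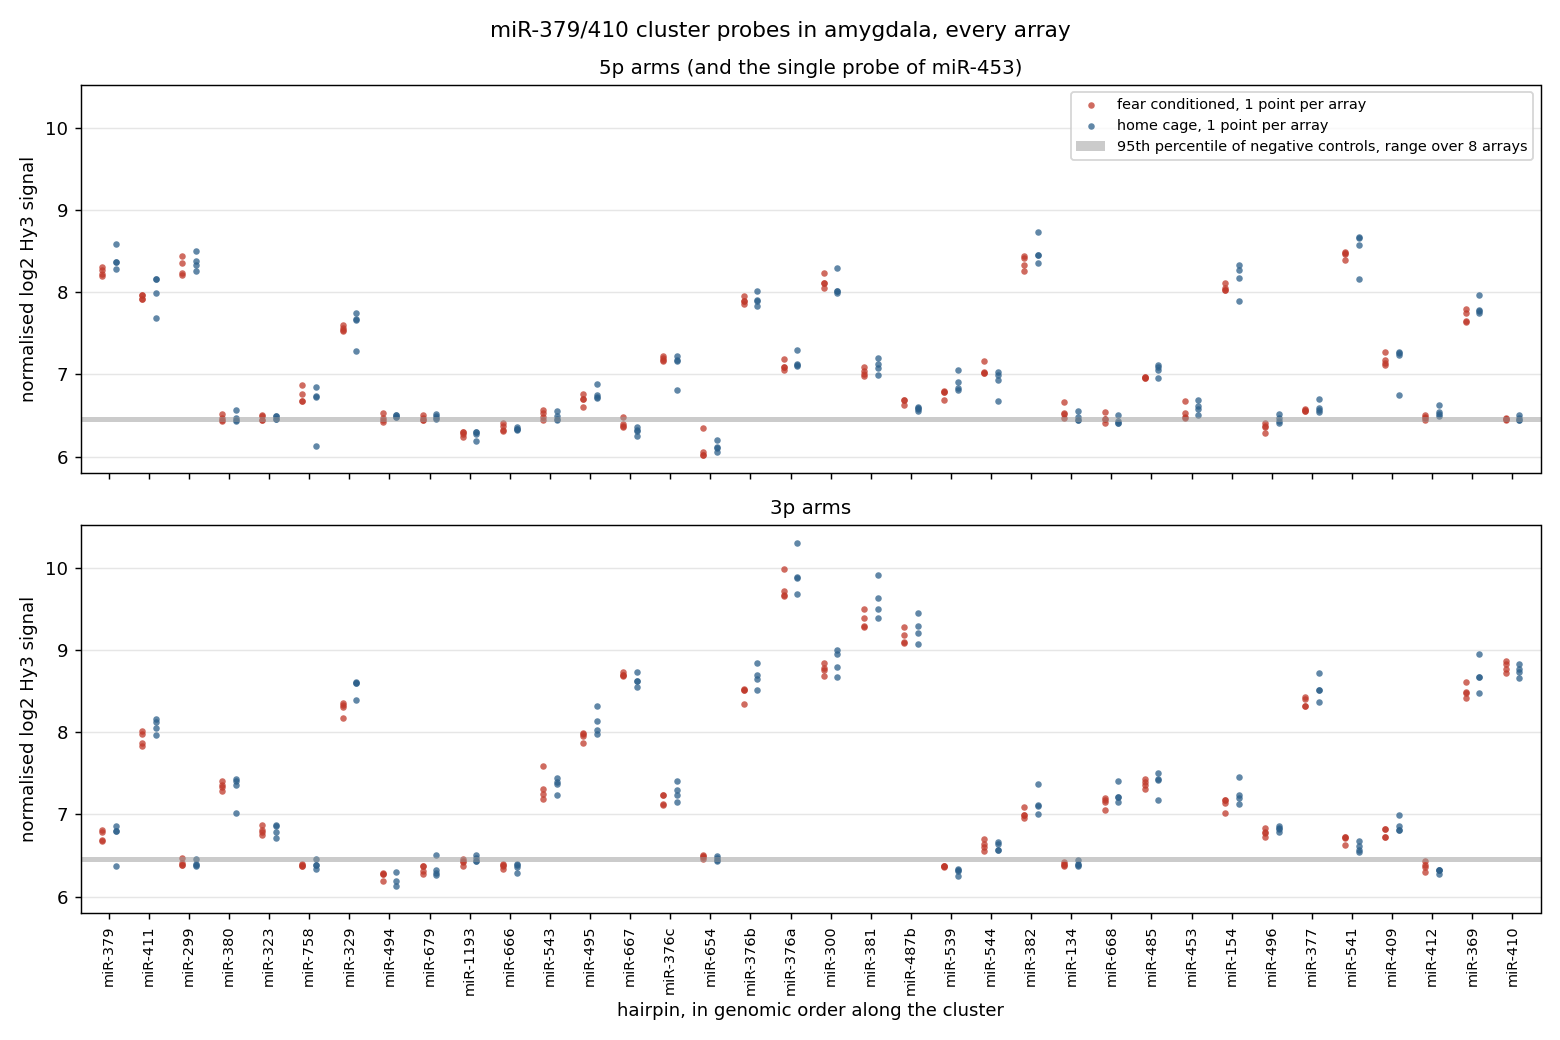
Normalised log2 Hy3 signal (vertical axis) of the cluster's probes on every array, by hairpin in genomic order, with 5p arms above and 3p arms below. Red points are fear conditioned arrays and blue points home cage arrays, 4 each, and the grey band is the range of the negative control thresholds. Probes of mmu-miR-679, mmu-miR-1193 and mmu-miR-666 lie near the band or below it, while the hairpins from mmu-miR-376b to mmu-miR-381 have 3p points above 8. Heights of different probes are not comparable as amounts.

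MiR-134 was close to the detection limit, and its groups overlapped in both measures. Its hairpin lies at chr12:109734139-109734209. The mmu-miR-134 probe (5p) gave log2 Hy3 signals of 6.47, 6.52, 6.66 and 6.53 on fear conditioned arrays 1 to 4, against 6.56, 6.44, 6.45 and 6.48 on home cage arrays 1 to 4. The highest value was on fear conditioned array 3 and the lowest on home cage array 2, with the ranges overlapping, and the probe was detected on 7 of 8 arrays. The means were 6.55 ± 0.084 after conditioning and 6.48 ± 0.053 in home cage mice (SD, n = 4 each). The difference was 0.065 on the log2 scale with a 95% interval of -0.043 to 0.17, and an exact two-sided permutation test over the 70 arrangements of the arrays gave p = 0.286, where the smallest possible p is 0.0286.

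In the deposited ratio, mmu-miR-134 was at -0.18, -0.24, -0.20 and -0.52 on fear conditioned arrays, against -0.04, -0.52, -0.39 and -0.48 on home cage arrays. Fear conditioned array 4 was as low as the lowest home cage array, and home cage array 1 was the highest of all. The difference was 0.070 with a 95% interval of -0.18 to 0.32 (exact permutation p = 0.571), and it was 0.18 without home cage array 1. The other arm, mmu-miR-134*, was below the negative controls on all 8 arrays. Its exact permutation p-values were 0.714 in the Hy3 signal and 0.171 in the ratio. After Benjamini-Hochberg adjustment over these 4 exact tests, the values for mmu-miR-134 were 0.571 in the Hy3 signal and 0.714 in the ratio. Those for mmu-miR-134* were 0.714 and 0.571 in the same order. The smallest possible p of each exact test was 0.0286 before adjustment. Even with that p in both measures, mmu-miR-134 alone could not have reached an adjusted p under 0.05. The adjusted values therefore do not decide whether mmu-miR-134 changed. With 4 arrays a group, both 95% intervals of mmu-miR-134 included 0, and they do not give the smallest change that could have been detected.

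For the cluster as a whole, no member passed the test in either measure. In the Hy3 signal 0 of 71 members had an adjusted p under 0.05 (limma, Benjamini-Hochberg over 1034 probes), where 0.193% of all mouse probes did, and the lowest adjusted p of a member was 0.152. At an unadjusted p under 0.05, 9 members were lower after conditioning, or 12.7% against a background of 9.09% of mouse probes. At the same threshold 4 members were higher, or 5.63% against 5.03%. Groups that did not overlap, with 4 arrays each, were found for 3 of 69 members on the lower side (background 5.38%) and 2 of 69 on the higher side (background 4.09%). The 2 on the higher side, mmu-miR-539-3p and mmu-miR-667*, were detected on 0 and 1 arrays.

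Most members had Hy3 differences below 0, and so did most well detected probes of the array. The difference was negative for 47 of 71 members and for 541 of 1034 mouse probes. Among probes detected on all 8 arrays it was negative for 34 of 40 members (85.0%) and for 290 of 480 mouse probes (60.4%). The median difference of those 40 members was -0.090, beside -0.028 for the 480 probes, and over all 71 members it was -0.026, beside -0.0043 for all 1034. The sign of these medians rests on the scaling, because centring each array on its median in place of quantile normalization moved the 480 probes to a median of 0.17 and the 40 members to 0.14, with 1 of 40 members below 0. With arrays centred on their spike-in probes the medians were -0.13 for the 40 members and -0.097 for the 480 probes. Over all 71 members, the median was above that of all 1034 probes under both of these scalings, by 0.062 and 0.056, where it was below it under quantile normalization.

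The 3p arm of mmu-miR-329 had the Hy3 difference furthest from 0 of any member as processed here. With poor spots kept, mmu-miR-376c was further from 0, at -0.60 against -0.31 for mmu-miR-329, and without background subtraction mmu-miR-758* was, at -0.41 against -0.23. Its hairpin lies at chr12:109713481-109713577. The signal was 8.18, 8.31, 8.34 and 8.36 on fear conditioned arrays 1 to 4, against 8.60, 8.62, 8.60 and 8.39 on home cage arrays 1 to 4. All 4 fear conditioned arrays were below all 4 home cage arrays. The difference was -0.26 ± 0.061 (SE, n = 4 each) with a 95% interval of -0.40 to -0.11 and an adjusted p of 0.152 by limma, so it did not pass. The deposited ratio did not give the same sign: mmu-miR-329 was at -0.52, -0.20, -0.27 and 0.02 on fear conditioned arrays, against -0.31, -0.37, -0.45 and -0.42 on home cage arrays, a difference of 0.14 ± 0.10 (SE) with overlapping groups. Median centring turned the Hy3 difference of mmu-miR-329 to 0.040.

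In the miR-376 family, whose precursors are known for A-to-I editing in brain, the 3p arms of mmu-miR-376a and mmu-miR-376b were lower in the Hy3 signal with ratio differences near 0, and no member passed. In the Hy3 signal mmu-miR-376b (3p) was at 8.51, 8.52, 8.52 and 8.34 on fear conditioned arrays, against 8.84, 8.65, 8.70 and 8.52 on home cage arrays. Home cage array 1 was the highest and fear conditioned array 4 the lowest, and the groups overlapped at home cage array 4. The Hy3 difference was -0.20 ± 0.071 (SE, n = 4 each, adjusted p = 0.333 by limma), while the ratio difference was 0.0058 ± 0.071. For mmu-miR-376a (3p) the Hy3 difference was -0.18 ± 0.14 and the ratio difference 0.010 ± 0.10, and for mmu-miR-376c they were -0.094 ± 0.059 and -0.076 ± 0.075. The Hy3 difference of mmu-miR-376c depended on the processing, at -0.60 with poor spots kept and -0.0088 without background subtraction. Leaving out home cage array 1 brought the Hy3 difference of mmu-miR-376a to -0.060 and that of mmu-miR-376b to -0.15.

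Mmu-miR-300 and mmu-miR-381, whose 3p arms differ at few positions, both had Hy3 differences below 0. Mmu-miR-381 had Hy3 signals of 9.29, 9.29, 9.51 and 9.40 on fear conditioned arrays, against 9.92, 9.64, 9.51 and 9.39 on home cage arrays, a difference of -0.24 ± 0.11 (SE, n = 4 each, adjusted p = 0.369 by limma). The groups overlapped, and without home cage array 1 the difference was -0.15. The ratio difference of mmu-miR-381 was 0.063 ± 0.064. Mmu-miR-300 was the member with the lowest ratio difference. Its ratio was 0.11, 0.15, 0.21 and 0.11 on fear conditioned arrays, against 0.47, 0.23, 0.28 and 0.28 on home cage arrays, so the groups did not overlap. The ratio difference of mmu-miR-300 was -0.17 ± 0.063 (SE, adjusted p = 0.591 by limma), and the Hy3 difference was -0.088 ± 0.073. No difference between these members was tested. Its other arm, mmu-miR-300*, had a ratio difference of 0.22 ± 0.090, of the opposite sign to that of mmu-miR-300, with overlapping groups. Its 95% interval reached 0.42, the furthest from 0 among the ratio intervals of members detected on all 8 arrays.

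At the start of the cluster, mmu-miR-379 and mmu-miR-411* were lower in both measures without passing. Mmu-miR-379 had Hy3 signals of 8.20, 8.27, 8.31 and 8.22 on fear conditioned arrays, against 8.59, 8.37, 8.37 and 8.28 on home cage arrays, and only home cage array 4 lay within the fear conditioned range. The Hy3 difference was -0.15 ± 0.064 and the ratio difference -0.12 ± 0.082 (SE, n = 4 each, adjusted p = 0.344 and 0.711 by limma). For mmu-miR-411* the Hy3 difference was -0.15 ± 0.055 and the ratio difference -0.13 ± 0.085, with adjusted p-values of 0.333 and 0.667 by limma. At the end of the cluster, mmu-miR-410 had a Hy3 difference of 0.055 ± 0.045 and a ratio difference of -0.046 ± 0.074. The other arm of the last hairpin had a Hy3 difference of -0.0039 and that of the first 0.036, and under median centring mmu-miR-379 and mmu-miR-410 were both above 0, at 0.13 and 0.41.

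Further members with an unadjusted limma p under 0.05 in the Hy3 signal had small differences. Mmu-miR-485, which in rat neurons represses the synaptic vesicle protein SV2A, was at 6.97, 6.97, 6.96 and 6.95 on fear conditioned arrays, against 7.12, 7.05, 7.10 and 6.96 on home cage arrays. Home cage array 4 lay within the fear conditioned range and the other home cage arrays above it, a difference of -0.093 ± 0.035 (SE). Mmu-miR-495 differed by -0.17 ± 0.072 and mmu-miR-377 by -0.16 ± 0.069, with overlapping groups. Mmu-miR-539-5p was lower on all 4 fear conditioned arrays, at 6.69 to 6.80 against 6.81 to 7.05 on home cage arrays, a difference of -0.13 ± 0.056. The ratio differences of these members were -0.044 for mmu-miR-485, 0.057 for mmu-miR-495, -0.041 for mmu-miR-377 and 0.031 for mmu-miR-539-5p, all with overlapping groups. On the higher side, mmu-miR-541* differed by 0.10 ± 0.039 in the Hy3 signal and 0.11 ± 0.077 in the ratio, and mmu-miR-487b*, with 3 fear conditioned values after poor spots were left out, by 0.090 ± 0.027 in the Hy3 signal. The last of the 9 lower members, mmu-miR-496*, was below the negative controls on all 4 fear conditioned arrays and above them on 3 home cage arrays, with measured means of 6.36 after conditioning and 6.46 in home cage mice. The adjusted p was 0.301 by limma, and the difference was not read as a change.

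The remaining named members were mostly probes with an asterisk name, of which mmu-miR-668*, mmu-miR-494* and mmu-miR-410* had signals near the controls. Mmu-miR-376a* had a Hy3 difference of -0.051 ± 0.051 and a ratio difference of -0.17 ± 0.076 (SE, n = 4 each). For mmu-miR-376b* the values were -0.015 ± 0.043 and 0.11 ± 0.068, and for mmu-miR-376c* they were 0.095 ± 0.086 and 0.020 ± 0.057. The 5p arms of mmu-miR-376b and mmu-miR-376c share a seed, printed above, and their Hy3 differences had opposite signs as processed here. These signs were not stable. Without home cage array 1 both differences were above 0, at 0.021 for mmu-miR-376b* and 0.0011 for mmu-miR-376c*. With poor spots kept both were below 0, at -0.076 and -0.14 in the same order. Mmu-miR-381* differed by -0.070 ± 0.046 in the Hy3 signal and 0.094 ± 0.059 in the ratio. Mmu-miR-667 differed by 0.072 ± 0.038 and -0.086 ± 0.080, mmu-miR-668* by 0.027 ± 0.036 and 0.088 ± 0.061, mmu-miR-494* by -0.027 ± 0.027 and -0.085 ± 0.057, and mmu-miR-410* by -0.0039 ± 0.022 and 0.011 ± 0.070, each with the Hy3 signal first and the ratio after it.

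For mmu-miR-379* and mmu-miR-758*, the sign of the Hy3 difference rested on home cage array 1. Mmu-miR-379* had a Hy3 signal of 6.37 on that array and 6.80 to 6.86 on the other home cage arrays, beside 6.68 to 6.82 on fear conditioned arrays. Its Hy3 difference was 0.036 ± 0.11, and -0.081 without that array. Its ratio difference was 0.23 ± 0.23, and -0.058 without that array. Mmu-miR-758* was similar, with a ratio of -2.30 on home cage array 1 and -0.15 to -0.02 on the other home cage arrays, beside -0.12 to 0.22 on fear conditioned arrays. Its ratio difference of 0.69 ± 0.43 became 0.14 without that array, and its Hy3 difference of 0.14 ± 0.15 became -0.024. These probes share no seed, and both were detected on 7 of 8 arrays.

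In the deposited ratio, 0 of 71 members had an adjusted p under 0.05, where 0% of all mouse probes did, and the lowest adjusted p of a member was 0.591 (limma, Benjamini-Hochberg over 1034 probes). At an unadjusted p under 0.05, 1 member was lower (1.41%, background 1.35%) and 3 were higher (4.23%, background 6.38%). Groups did not overlap for 1 of 69 members on the lower side (background 1.11%) and for 3 on the higher side (background 4.32%). The 3 were mmu-miR-369-3p, mmu-miR-544-5p and mmu-miR-654-3p. The ratio of mmu-miR-369-3p was -0.12, 0.06, 0.00 and -0.08 on fear conditioned arrays, against -0.13, -0.20, -0.15 and -0.32 on home cage arrays, a difference of 0.17 ± 0.064 (SE, n = 4 each, adjusted p = 0.591 by limma). Its Hy3 difference had the opposite sign, at -0.19 ± 0.095, with home cage array 1 at 8.96 and the other home cage arrays at 8.48 to 8.67. For mmu-miR-544-5p the ratio was 0.21 to 0.32 on fear conditioned arrays, against -0.25 on home cage array 1 and 0.17 to 0.20 on the others, a difference of 0.19 ± 0.097, and 0.084 without home cage array 1. For mmu-miR-654-3p, whose Hy3 signal lay near the controls, the ratio difference was 0.11 ± 0.054. Mmu-miR-409-3p and mmu-miR-299* had ratio differences of 0.21 ± 0.089 and 0.17 ± 0.079, with Hy3 differences of -0.096 ± 0.046 and -0.056 ± 0.068.

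The measures disagreed on the direction of the cluster as a whole. In the ratio, 48 of 71 members and 654 of 1034 mouse probes had differences above 0, and among probes detected on all 8 arrays 24 of 40 members did (60.0%), beside 329 of 480 mouse probes (68.5%). The median ratio difference was 0.036 for the 40 members and 0.041 for the 480 probes. Of the 40 members, 20 were lower in the Hy3 signal and higher in the ratio, 14 were lower in both, and 18 had the same sign in both. In both measures the members' medians had the same sign as those of all probes.

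**Figure D2:**
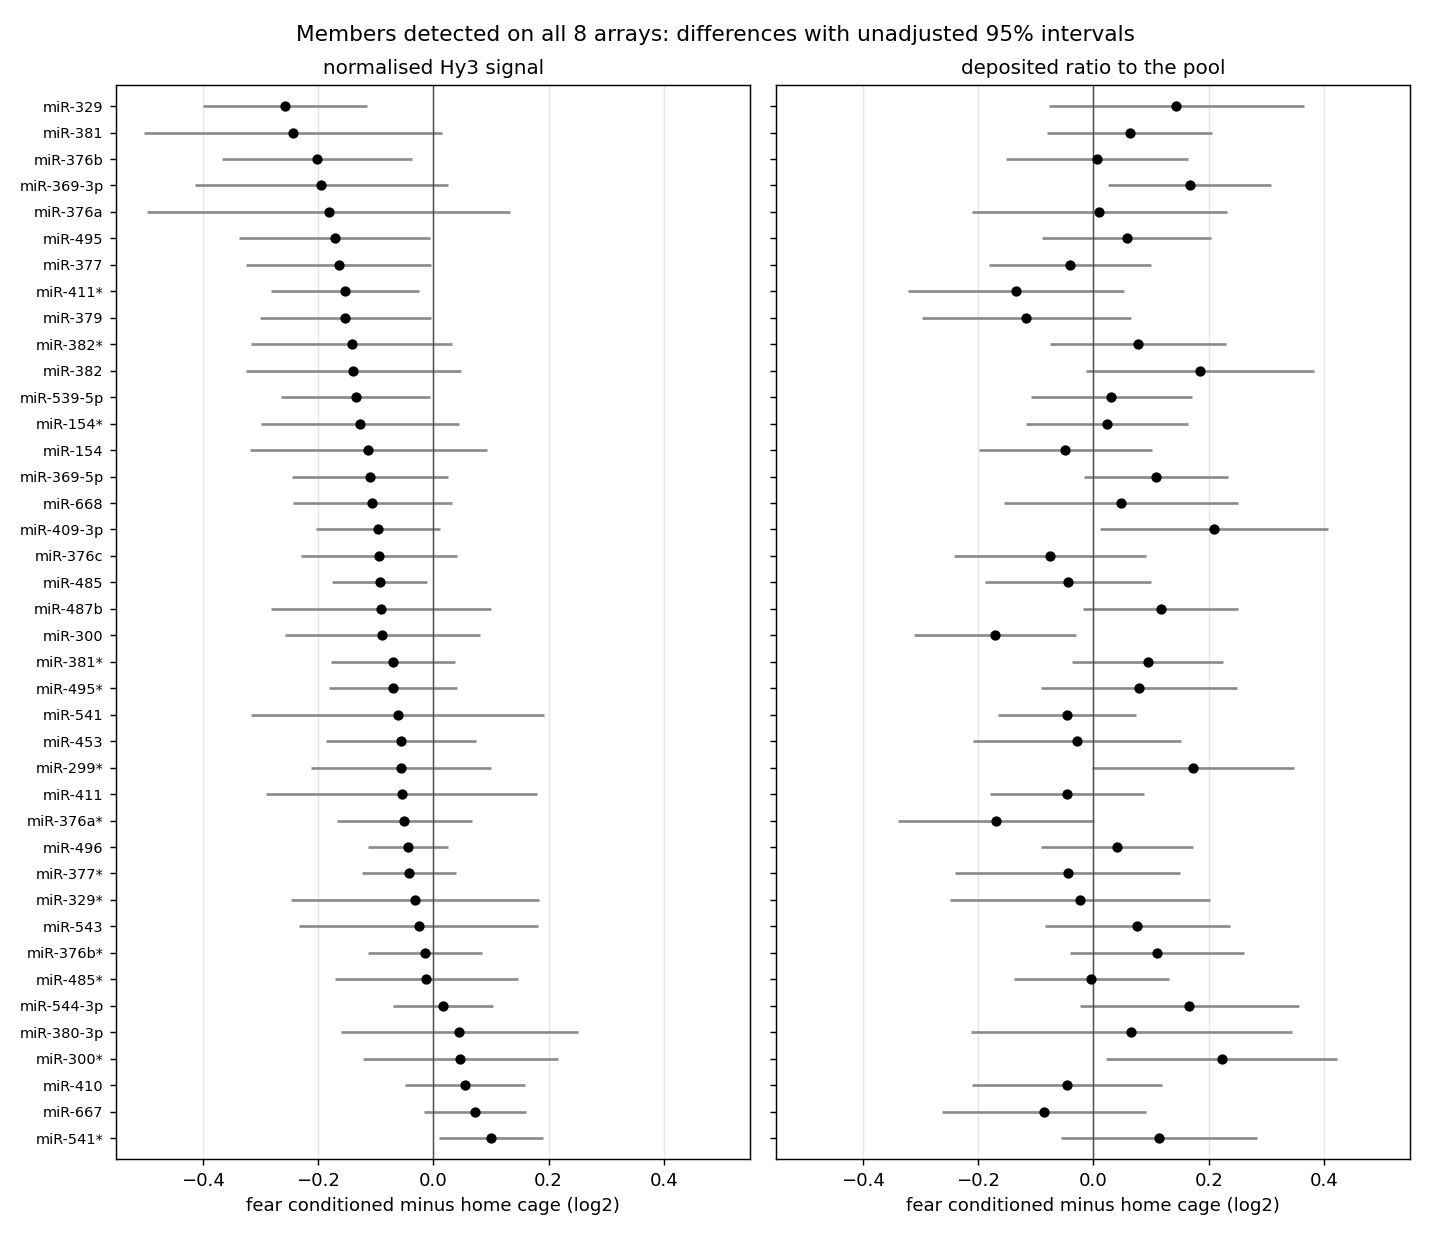
Fear conditioned minus home cage differences (log2, horizontal axis) of the 40 members detected on all 8 arrays, in the normalised Hy3 signal on the left and the deposited ratio on the right, ordered by the Hy3 difference. Points are differences and lines unadjusted 95% intervals from limma. The Hy3 intervals of 9 members and the ratio intervals of 4 exclude 0, and 34 Hy3 points lie left of 0 where 24 ratio points lie right of it.

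The arms of a hairpin are cut from the same precursor. In the Hy3 signal, both arms were lower after conditioning for 11 of the 13 hairpins with both arms detected on all 8 arrays, and the arms had opposite signs for mmu-miR-300 and mmu-miR-541. In the ratio both arms were lower for 3 hairpins, both higher for 5, and of opposite sign for 5. Of all mouse probes detected on all 8 arrays, 60.4% were lower in the Hy3 signal. Their median difference was -0.028 in the Hy3 signal and 0.041 in the ratio. Under median centring of the Hy3 signal, 1 of 40 members was below 0. By arm, the median Hy3 difference was -0.066 over 16 5p probes and -0.096 over 23 3p probes, and the median ratio difference was 0.0043 and 0.049 over the same probes. Along the cluster, the median Hy3 difference of members detected on all 8 arrays was -0.056 in the first 12 hairpins, -0.091 in the next 12 and -0.093 in the last 12. The ratio medians in the same order were 0.022, 0.063 and -0.0038. No difference between arms or between stretches of the cluster was tested.

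The unadjusted intervals give the precision of each difference, not the size of change needed to pass the adjusted test. Mmu-miR-329, at -0.26 with an interval of -0.40 to -0.11, did not pass that test. The 95% interval of the Hy3 difference had a median half-width of 0.15 over the 40 members detected on all 8 arrays, with a range of 0.069 to 0.31. The end furthest from 0 was that of mmu-miR-381, at -0.50. Of the 58 members detected on at least 4 arrays, the intervals of 48 included 0. These intervals are on the scale after an offset of 50 was added, which understates the change of dim probes, and they cover the spread between animals under quantile normalization and no doubt about the scaling.

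Array to array within a group, the members moved partly together. Each array's value was set against the mean of its own group, and the correlation of these deviations was taken for every pair of probes over the 8 arrays, which share RNA, labelling and normalization within an array. This comparison and its alternatives were chosen after seeing the data. The median correlation was 0.47 among the 40 members, 0.17 between members and other probes, and 0.068 among the 440 other probes detected on all 8 arrays. Arms of the same hairpin had a median of 0.55 over 13 pairs, and members of different hairpins 0.47. Without home cage array 1 the medians were 0.39 among members and 0.059 among other probes.

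How far the members stood out from other probes depended on the measure. Without background subtraction the medians were 0.20 among members and 0.19 among others over 8 arrays, and 0.38 and 0.061 without home cage array 1. Median centring gave 0.93 and 0.84, and spike-in centring 0.87 and 0.73. In the deposited ratio the medians were 0.15 among members and 0.015 among others, and 0.063 and 0.026 without home cage array 1. The order of same-hairpin and different-hairpin pairs also changed. Over 8 arrays their medians were -0.15 and 0.20 without background subtraction, 0.82 and 0.87 with spike-in centring, and 0.029 and 0.15 in the ratio. With median centring they were 0.95 and 0.93. Without home cage array 1 the same-hairpin median was the higher in each Hy3 scaling and the lower in the ratio.

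The deviations were most one-sided on 3 arrays. On home cage array 1, 31 of 40 members were above their group mean in the Hy3 signal and 33 of 40 in the ratio, with a median deviation of 0.11 for members and 0.048 for the other 440 probes in the Hy3 signal. On home cage array 4, 6 of 40 members were above their group mean in the Hy3 signal and 7 of 40 in the ratio, with medians of -0.089 for members and -0.025 for other probes. On fear conditioned array 3, 30 members were above in the Hy3 signal and 25 in the ratio. The 9 members below the mean on home cage array 1 were led by mmu-miR-541, mmu-miR-411, mmu-miR-329*, mmu-miR-380-3p and mmu-miR-154, with deviations of -0.28 to -0.36, while mmu-miR-376a had a deviation of 0.37.

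**Figure D3:**
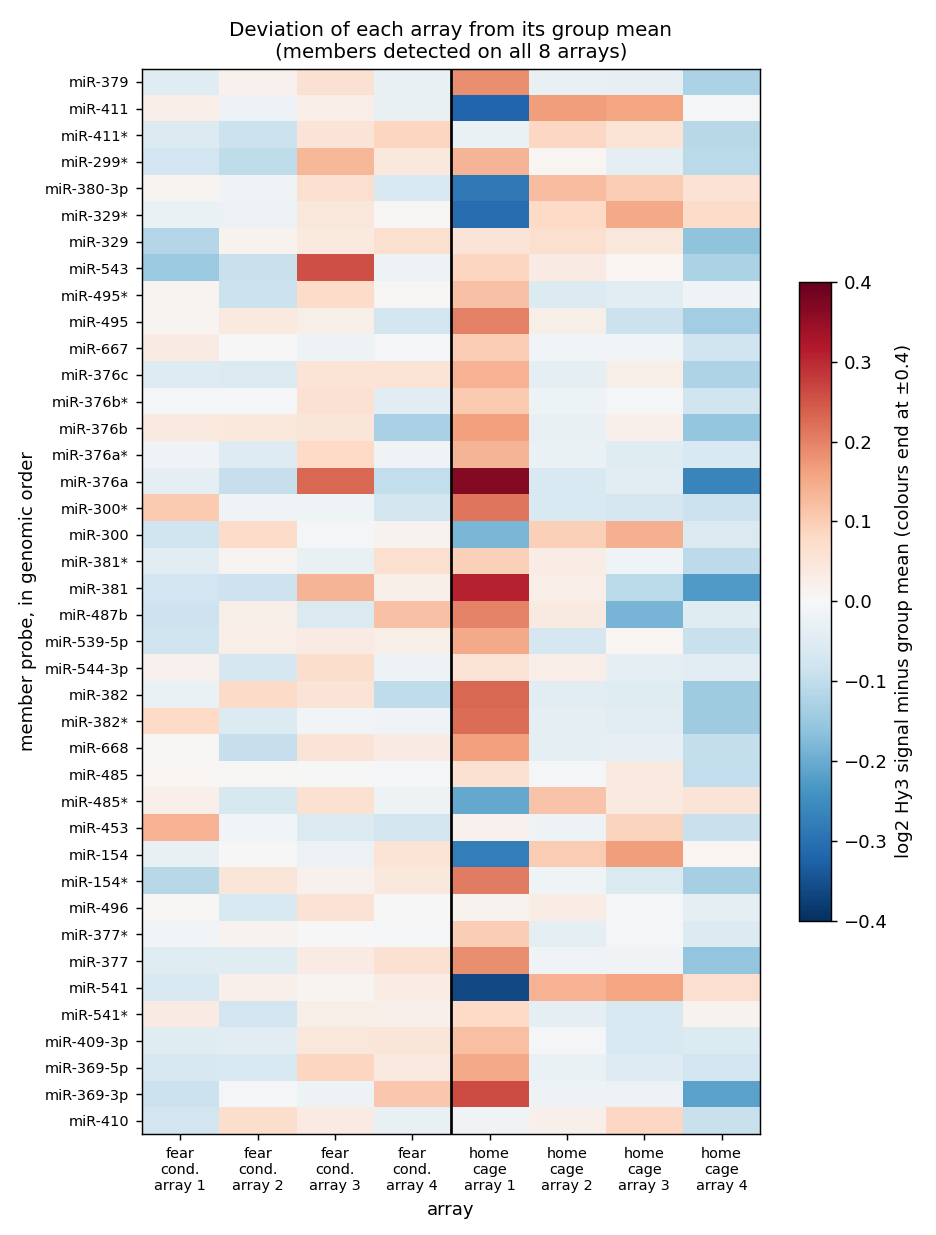
Deviation of each array from its group mean in the log2 Hy3 signal (colour, red above and blue below) for the 40 members detected on all 8 arrays, in genomic order down the page, with fear conditioned arrays left of the black line and home cage arrays right of it. Home cage array 1 is red for 31 members and blue for 9, and home cage array 4 is blue for most.

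The spread was larger among home cage arrays than among fear conditioned arrays for 35 of the 40 members (87.5%), compared with 256 of the 440 other probes (58.2%). The median SD of a member was 0.058 on fear conditioned arrays and 0.11 on home cage arrays, and that of other probes was 0.081 and 0.088. With home cage array 1 left out, 21 of 40 members (52.5%) and 132 of 440 other probes (30.0%) had the larger spread among the remaining 3 home cage arrays. These counts are descriptions of probes that share arrays, and no test was made of them.

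Home cage array 1 also bore on the differences between groups. Without it the median Hy3 difference of the 40 members was -0.060, beside -0.025 for all 480 probes, and the ratio medians were 0.055 and 0.038. Without home cage array 1, the count of members at an unadjusted limma p under 0.05 was 16 in the Hy3 signal, or 22.5% beside 15.3% of all mouse probes. It was 17 without home cage array 4, or 23.9% beside 16.9%, and 13 with all arrays, or 18.3% beside 14.1%. No member passed an adjusted p of 0.05 in those fits, where the lowest values were 0.0936 with home cage array 1 left out and 0.0779 with home cage array 4 left out. The Hy3 difference of mmu-miR-329 was -0.25 without home cage array 1, close to the value with it.

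**Figure D4:**
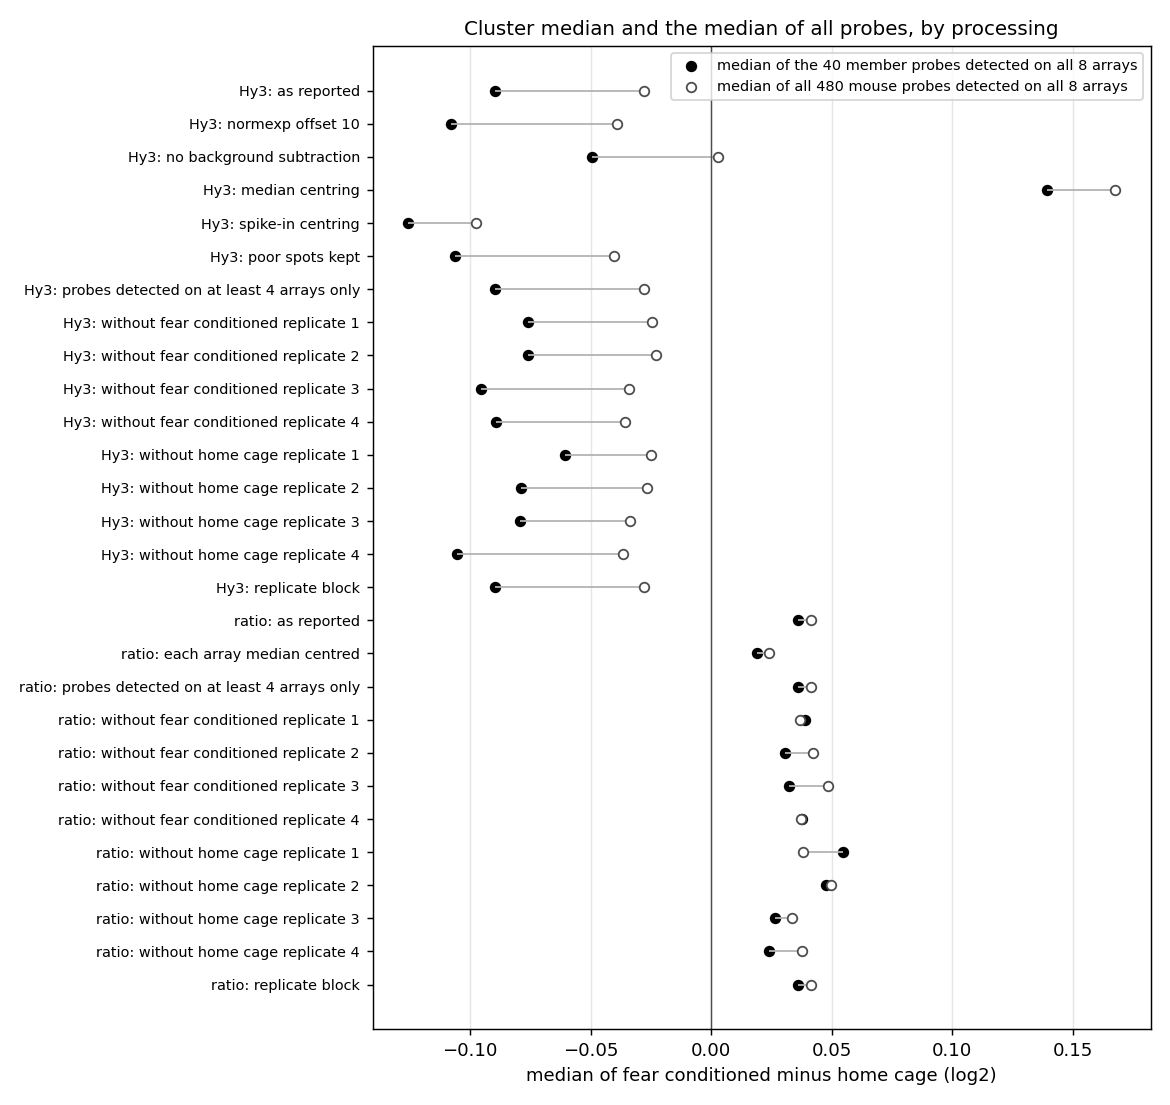
Median fear conditioned minus home cage difference (log2, horizontal axis) of the 40 members detected on all 8 arrays (filled) and of all 480 mouse probes so detected (open), for each processing of the Hy3 signal and the deposited ratio. Both medians are positive under median centring of the Hy3 signal, at 0.14 and 0.17, and in every processing of the ratio, while the Hy3 medians of the members are negative in every other processing shown. Without background subtraction of the Hy3 signal the medians have opposite signs, at -0.050 for the members and 0.0030 for all probes.

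Further microRNAs of the same imprinted domain were listed by name and not counted as members. Where they lie relative to the cluster was not looked up. The 20 hairpins listed for them had 37 probes, of which 24 were detected on all 8 arrays. In the Hy3 signal 0 of the 37 had an adjusted p under 0.05 by limma, where 0.193% of all mouse probes did, and at an unadjusted p under 0.05 there were 3 lower (8.11%, background 9.09%) and 2 higher (5.41%, background 5.03%). The smallest p on the lower side was that of mmu-miR-3072, with a Hy3 difference of -0.14 ± 0.023 and a ratio difference of -0.15 ± 0.071 (SE, adjusted p = 0.102 in the Hy3 signal by limma). On the higher side it was that of mmu-miR-493*, with a Hy3 difference of 0.48 ± 0.11 and a ratio difference of 0.11 ± 0.063 (SE, adjusted p = 0.152 in the Hy3 signal by limma). Of the 24, 19 were lower after conditioning and 5 higher, with a median difference of -0.060, and in the ratio 18 of 24 were higher, with a median of 0.040. These further microRNAs and the members thus had medians of the same sign in each measure, as had all probes detected on all 8 arrays. No difference between them was tested.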

How the data were processed

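Per the labels, each sample is 1 animal, and its RNA was hybridised to 1 array, 4 arrays a group, and both groups were compared with limma 3.58.1 in R 4.3.3. The scanner files, per the file headers, hold deposited spot intensity and local background intensity of 1 channel. It was taken as the Hy3 channel because the Hy3 landmark spots are bright in it. The mean intensity was corrected by normexp with an offset of 50, control spots and poor spots (poor shape, or background above signal) were left out, arrays were quantile normalized, and the 4 spots of a probe averaged as log2. The authors also deposited log ratios of sample to pool, taken as log2. No source used here gives their log base, normalization or direction. The regression slope of the Hy3 signal on the ratio over the 20 widest probes was 0.894, and deviations by array correlated at 0.407 to 0.751 over 240 bright probes. Both measures were fitted over all 1034 mouse-named probes (lmFit and eBayes, two-sided, Benjamini-Hochberg over all), and intervals are 95% intervals of that fit. The fit was tested on simulated data with 200 changed probes.

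The members, the further microRNAs of the domain and the marker probes were chosen with earlier results of these data known. Members named with values were those detected on at least 4 arrays with the smallest p in each direction (10 each way for the Hy3 signal, 5 each way for the ratio) or with groups that did not overlap, and every probe of miR-134, miR-379, miR-410, miR-376a, b and c, miR-300 and miR-381. Alternatives changed the offset (10), background subtraction, scaling, poor spots, the detection filter and the arrays entered. Older probe names were matched to RefSeq arm names by hand.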

Additional observations from a re-analysis of the deposited data

Results flagged for a closer look

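Single arrays lay far from the rest of their group for some named members, by a rule on the gap to the nearest other array. Chance marks about 1 in 20 groups, and 16 of the 130 groups checked were marked. On home cage array 1, the Hy3 signal was 6.82 for mmu-miR-376c*, 6.37 for mmu-miR-379* and 8.30 for mmu-miR-300*, against 7.17 to 7.23, 6.80 to 6.86 and at most 8.02 on the other home cage arrays. On the same array the ratio was -0.25 for mmu-miR-544-5p, -2.30 for mmu-miR-758*, -0.053 for mmu-miR-134* and -1.24 for mmu-miR-379*, each away from the other home cage arrays. The ratio of mmu-miR-134 was -0.52 on fear conditioned array 4, against -0.24 to -0.18 on the other fear conditioned arrays. The Hy3 signal of mmu-miR-329 was 8.39 on home cage array 4, against 8.60 to 8.62 on the other home cage arrays.

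On fear conditioned arrays the Hy3 signal stood apart at 6.62 for mmu-miR-541* on array 2, at 7.17 for mmu-miR-544-5p on array 3, at 8.34 for mmu-miR-376b on array 4 and at 6.69 for mmu-miR-539-5p on array 1. The ratio stood apart at -0.22 for mmu-miR-667 on fear conditioned array 1, at -0.30 for mmu-miR-411* on fear conditioned array 2 and at 0.0029 for mmu-miR-409-3p on home cage array 2.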

How the results depend on the processing

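No member passed an adjusted p of 0.05 under any alternative, in either measure. Of the 68 differences of named microRNAs other than mmu-miR-134, 36 changed sign under at least 1 alternative, and the cause was not tested. The Hy3 difference of mmu-miR-134 also changed sign, to -0.15 with spike-in centring. The count of all mouse probes that passed in the Hy3 signal, 2 as reported, was 2 with an offset of 10, 1 with poor spots kept, 1 with probes detected on at least 4 arrays only, 0 without background subtraction, with median centring, with spike-in centring and with the replicate block, and 0 to 2 with 1 array left out. Same-numbered samples did not deviate together (correlations of -0.589 to 0.0081 in the Hy3 signal). These correlations do not settle whether the numbers mark pairs of samples, and the replicate block left 0 members past the test. The members' median minus that of all mouse probes, -0.021 in the Hy3 signal, was 0.062 with median centring and 0.056 with spike-in centring, where members detected on all 8 arrays stayed below all such probes at -0.028 under both. In the ratio it was 0.017, and -0.0054 with probes detected on at least 4 arrays only.

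Median centring moved the median of all mouse probes to 0.057 and spike-in centring to -0.21, so differences under them are relative to that shift. Under median centring the Hy3 differences that turned were 0.040 for mmu-miR-329, 0.11 for mmu-miR-376b, 0.13 for mmu-miR-411*, 0.097 for mmu-miR-485, 0.023 for mmu-miR-539-5p, 0.12 for mmu-miR-495, 0.13 for mmu-miR-379, 0.13 for mmu-miR-377, 0.19 for mmu-miR-381, 0.061 for mmu-miR-409-3p, 0.13 for mmu-miR-369-3p, 0.23 for mmu-miR-299*, 0.25 for mmu-miR-300, 0.16 for mmu-miR-376a*, 0.24 for mmu-miR-376a, 0.29 for mmu-miR-376b*, 0.14 for mmu-miR-376c, 0.14 for mmu-miR-381*, 0.012 for mmu-miR-410* and 0.044 for mmu-miR-3072. Under spike-in centring they were -0.12 for mmu-miR-487b*, -0.070 for mmu-miR-541*, -0.15 for mmu-miR-134, -0.23 for mmu-miR-654-3p, -0.21 for mmu-miR-668*, 0.024 for mmu-miR-376b* and -0.048 for mmu-miR-379*. Without background subtraction they were -0.056 for mmu-miR-544-5p, -0.0097 for mmu-miR-376c*, -0.41 for mmu-miR-758*, 0.024 for mmu-miR-376a*, 0.069 for mmu-miR-376b*, -0.27 for mmu-miR-379* and 0.017 for mmu-miR-410*. With poor spots kept they were -0.14 for mmu-miR-376c*, -0.017 for mmu-miR-300*, 0.070 for mmu-miR-376a* and -0.018 for mmu-miR-379*. With each array's ratios centred on their median, the ratio difference was -0.011 for mmu-miR-376b, -0.0069 for mmu-miR-376a and -0.0065 for mmu-miR-410*.

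With 1 array left out at a time, Hy3 differences ranged from -0.017 to 0.0081 for mmu-miR-134*, -0.040 to 0.021 for mmu-miR-376b*, -0.081 to 0.089 for mmu-miR-379*, -0.012 to 0.011 for mmu-miR-410* and -0.024 to 0.22 for mmu-miR-758*. Ratio differences ranged from -0.048 to 0.068 for mmu-miR-376a, -0.040 to 0.051 for mmu-miR-376b, -0.017 to 0.047 for mmu-miR-376c*, -0.058 to 0.35 for mmu-miR-379*, -0.037 to 0.047 for mmu-miR-410* and -0.0035 to 0.063 for mmu-miR-539-5p. Signal over background limits the dim probes, and 31 of the 71 members were not detected on at least 1 array. That count includes mmu-miR-487b*, which had no value on fear conditioned array 3 after poor spots were left out. It also rests on the negative control threshold of home cage array 1, which was raised before normalization, at 7.23.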
